A study of Mus musculus with 42 samples.

Results

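The 6 genes described here encode the ligands of the chemokine receptor CXCR3 (Cxcl9, Cxcl10 and Cxcl11), that receptor (Cxcr3), and the chemokine CXCL16 with its receptor CXCR6 (Cxcl16 and Cxcr6). They were chosen by symbol, and each had 1 row in a count matrix of 26811 genes from 42 mouse tumors. All 6 passed the filter on low counts that left 16932 genes for testing.

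The tumors came from a study of the immune setting in which antibodies to PD-1 act, and the blocking arms asked what GM-CSF and the IL-2 receptor beta chain contribute to it. MC38, a single colon carcinoma line, was grown under the skin of female CC075/UncJ x C57BL/6J F1 mice aged 8 to 12 weeks, which keep their own immune cells. All 42 mice had the same genotype and the same number of cells, then blocking antibody or its isotype control every 3 days until the tumor measured 75 to 110 mm3, then a single injection, with collection 48 h later. RNA was taken from whole tumors, so fewer cells of a type and less RNA per cell cannot be told apart in any level given here.

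The isotype group (5 tumors) received isotype control antibodies throughout. The aPD1 group (6 tumors) received control antibodies and then 200 ug of anti-PD-1. The aPD1 + aGMCSF group (9 tumors) had 100 ug of anti-GM-CSF at each blocking injection before anti-PD-1, and the aPD1 + aIL2RB group (11 tumors) had 200 ug of anti-IL2RB. The aPD1 + aGMCSF + aIL2RB group (11 tumors) had both blocking antibodies before anti-PD-1.

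CXCL9, CXCL10 and CXCL11 are small secreted chemokines that macrophages, dendritic cells and stroma make after exposure to interferons, with interferon-gamma as the classic inducer. CXCR3 sits on activated T cells and NK cells and draws them toward those ligands. CXCL16 is made as a membrane-bound protein that can be shed from the cell surface, and CXCR6 marks effector and tissue-resident T cells and NKT cells. In tumors both axes are known for the recruitment and positioning of cytotoxic T cells.

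The total count per tumor ran from 7155486 in aPD1 + aGMCSF + aIL2RB replicate 4 to 24101674, and the next lowest total was 15109227. Levels are given as CPM, counts scaled to a common library size after correction by the trimmed mean of M-values. The replicate numbers fell into 2 sets: isotype 1 to 2, aPD1 1 to 3, aPD1 + aGMCSF 1 to 5, and 1 to 6 of the remaining groups (22 tumors, the first set), against the other 20 tumors (the second set). With treatment means removed, the first principal component (11.8% of the variance) put 37 of 42 tumors on the side of their set. The sets were drawn with earlier results of these data known, so this agreement describes them and is no independent test of them. No source used here says what separates the sets, so values within each set are given beside many of the pooled ones. Shisal2b, the gene listed as the marker of MC38 cells, was at 8.80 to 31.3 CPM, and the leukocyte gene Ptprc at 86.8 to 412 CPM across the 42 tumors.

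Cxcl9 (ENSMUSG00000029417), Cxcl10 (ENSMUSG00000034855) and Cxcl11 (ENSMUSG00000060183) lie in a row on the minus strand of chromosome 5 of GRCm38, at chr5:92321347-92328079, chr5:92346638-92348889 and chr5:92359544-92365485. The gap between Cxcl9 and Cxcl10 is 18.6 kb and that between Cxcl10 and Cxcl11 is 10.7 kb. Cxcl11 is annotated as a polymorphic pseudogene in the reference strain. Art3, on the plus strand, overlaps Cxcl10 and Cxcl11, and the counting is not stated to use strand. The sequences shown are the 250 bases upstream of the RefSeq start sites of Cxcl9 and Cxcl10 (GRCm38.p6, minus strand), since these neighbours had different profiles across the groups. Capitals mark matches, on either strand, to the interferon-stimulated response element (GAAA, any 2 bases, then GAAA), the gamma-activated site (TTCNNNGAA) and the NF-kB consensus.

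Cxcl9, chr5:92328080-92328329: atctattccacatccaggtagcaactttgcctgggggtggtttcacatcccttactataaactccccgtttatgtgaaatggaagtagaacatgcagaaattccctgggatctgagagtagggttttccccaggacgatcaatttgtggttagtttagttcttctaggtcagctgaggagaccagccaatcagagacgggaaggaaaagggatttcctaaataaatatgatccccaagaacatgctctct
Cxcl10, chr5:92348890-92349139: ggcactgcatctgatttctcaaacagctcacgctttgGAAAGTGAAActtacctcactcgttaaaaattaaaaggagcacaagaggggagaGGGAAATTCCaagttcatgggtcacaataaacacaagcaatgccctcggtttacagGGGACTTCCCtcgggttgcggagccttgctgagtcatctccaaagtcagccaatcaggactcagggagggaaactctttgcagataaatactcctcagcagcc

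The Cxcl10 window held 1 interferon-stimulated response element (GAAAGTGAAA, 213 to 204 bases upstream) and 2 NF-kB matches (GGGAAATTCC, 159 to 150, and GGGACTTCCC, 103 to 94 bases upstream). None of the 3 motifs was found in these letters of the Cxcl9 window, nor in the windows of Cxcr3 and Cxcr6. Among 32851 mouse promoter windows of the same 250 bases, 2.98% held the response element, 7.02% the gamma-activated site and 3.9% the NF-kB consensus. A match is a description of the letters, not evidence of a site in use. The lack of a match to these 3 patterns does not show that a promoter lacks such elements. The part of these letters in the profiles across the groups was not tested.

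Per kb of exon, in the aPD1 group, the order of mean levels was Cxcl9 (156 CPM per kb), Cxcl10 (102), Cxcl16 (54.3), Cxcr6 (7.09), Cxcl11 (1.78) and Cxcr3 (1.56). Cxcl9 had 194 to 12596 counts per tumor, Cxcl10 1381 to 6604, Cxcl16 791 to 4385 and Cxcr6 6 to 413. Cxcr3 had between 0 and 110 counts, with a median of 12, and Cxcl11 between 14 and 178, with a median of 58. Single-tumor values of Cxcr3 and Cxcl11 therefore carry wide counting error, as do those of Cxcr6 (median 58) in tumors where its count is low.

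**Figure D1:**
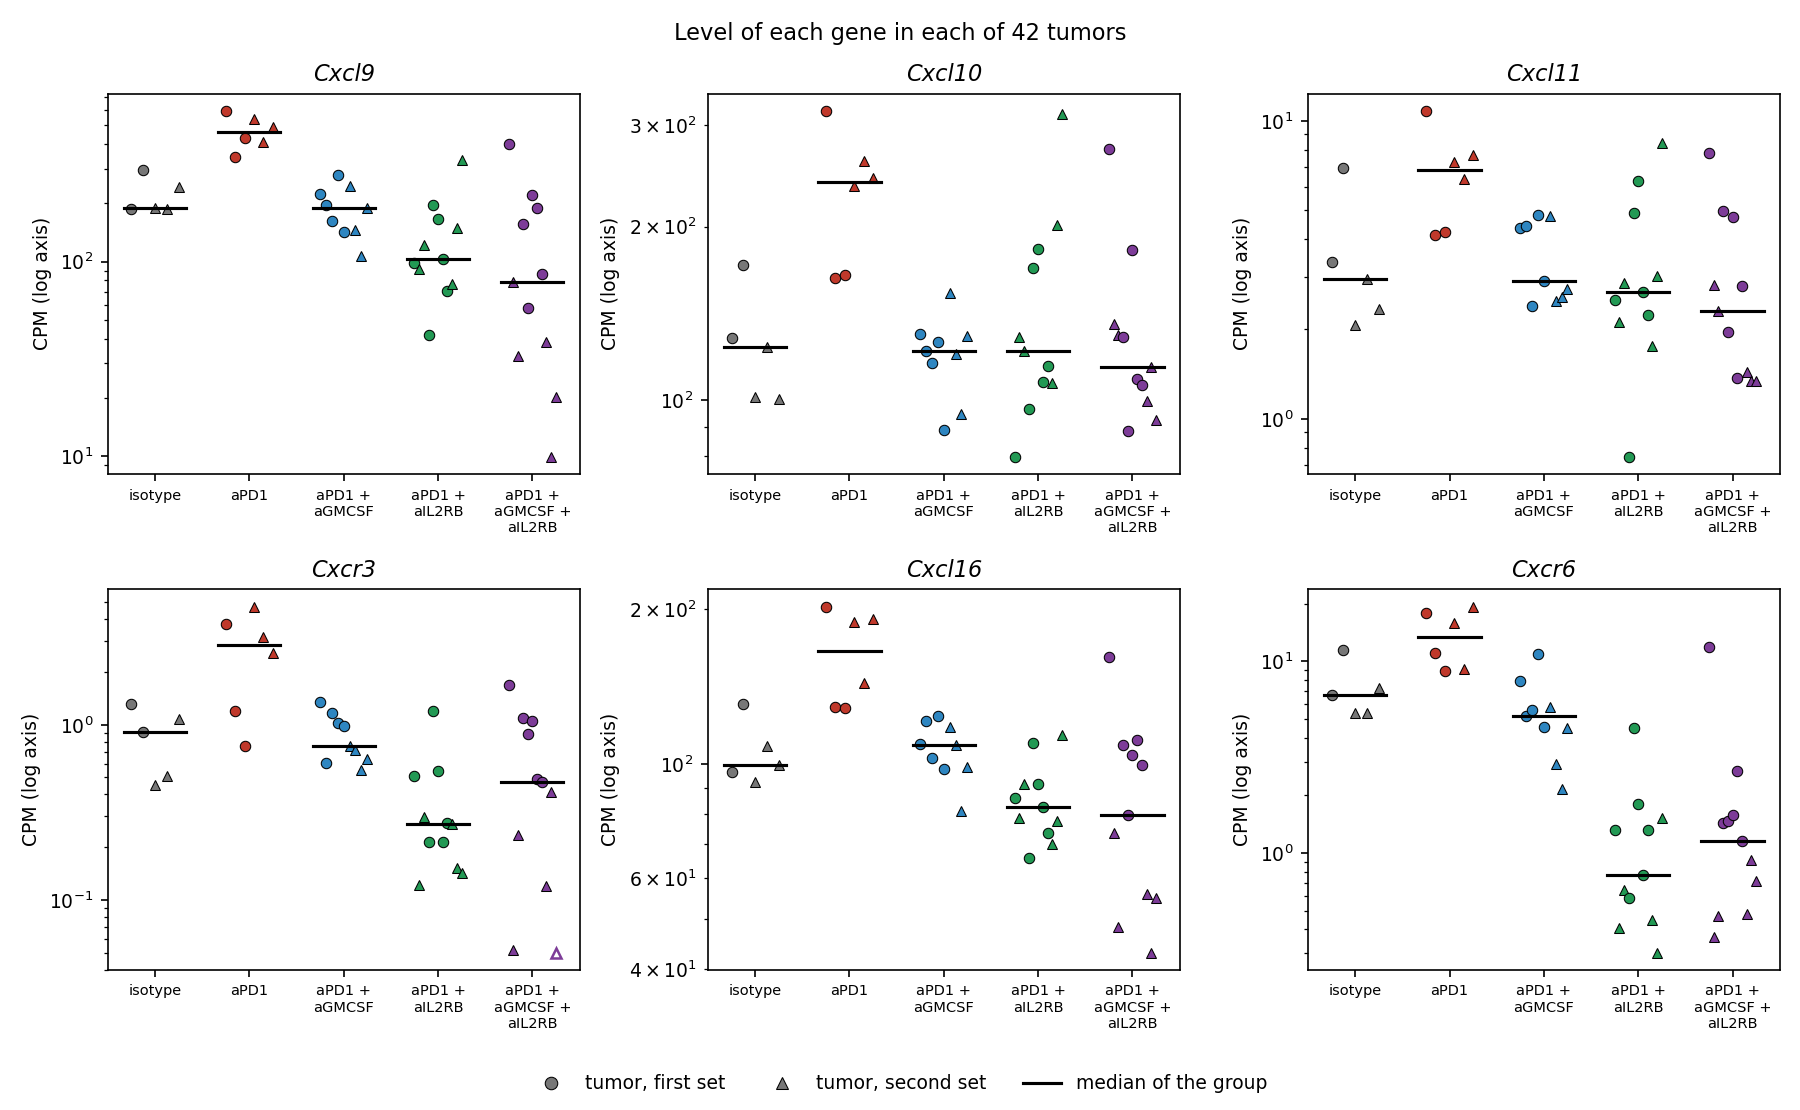
Level of each of the 6 genes (CPM, log axis) in each of the 42 tumors by treatment group, with circles for the first set, triangles for the second set and a bar at the group median. For each gene the highest group median is that of aPD1, and the open triangle for Cxcr3 stands for a count of 0 drawn at 0.05 CPM.

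Against isotype, aPD1 tumors had a higher mean of all 6 genes, and 1 of 6, Cxcl10, passed the threshold (edgeR adjusted p below 0.05), where 8.71% of all genes tested were called, 6.17% as higher. The median log2 difference of the 6 was 0.93, beside 0.00 over all genes. Cxcl9 was the 1 member with no overlap between these groups, as were 3.38% of all genes on the higher side. Called members numbered 5 in a fit of these groups alone and 5 within the second set, but 0 within the first set. Of all genes tested, these fits called 7.96%, 13% and 0.0115%. The first set held only 2 isotype and 3 aPD1 tumors. A test of the difference between sets called 0 of 6 members here (edgeR adjusted p = 0.544 to 0.933).

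Some markers of other tissues moved with the aPD1 group as well. Against isotype 0 of 3 adipocyte, 0 of 3 keratinocyte, 0 of 2 erythroid and 0 of 2 granulocyte markers tested were called. All 3 skeletal muscle markers were higher in aPD1 than in isotype tumors (median log2 4.37; Myh4 6.38, edgeR adjusted p = 0.00673), and their summed level ran from 0.140 to 17.5 CPM in isotype and from 0.344 to 533 CPM in aPD1 tumors. They were lower in aPD1 + aIL2RB than in aPD1 (3 of 3, median log2 -3.02). Of 4 fibroblast markers 3 were higher and 1 lower in aPD1 than in isotype, with 2 of 3 endothelial and 1 of 4 B cell markers higher. Of all genes, 8.71% were called in that comparison, 6.17% as higher. In aPD1 + aIL2RB against aPD1 3 of 4 fibroblast markers were lower and 1 higher, and 3 of 4 B cell markers were lower. There 27.4% of all genes were called, 14.5% as lower. In aPD1 + aGMCSF + aIL2RB against aPD1 2 of 3 keratinocyte markers, Krt5 and Krt14, were lower (median log2 of the 3, -2.83), beside 14.3% of all genes called lower. Shisal2b, the MC38 gene, was at -0.47 in aPD1 against isotype (edgeR adjusted p = 0.150) and was higher in aPD1 + aIL2RB than in aPD1 (0.70, adjusted p = 0.00235). The part of tissue makeup in the levels of the 6 genes was not tested.

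With GM-CSF blocked before anti-PD-1, 4 of 6 were lower than in aPD1 tumors (Cxcl9, Cxcl10, Cxcr3 and Cxcl16), against 13.5% of all genes called and 8.75% called lower, but 0 of 6 were called within the first set (0.155% of genes called) and 6 within the second (16.4%), and all 6 when only the aPD1 and aPD1 + aGMCSF tumors were fitted (2548 genes called in all). With IL2RB blocked, all 6 were lower than in aPD1 tumors, against 27.4% of genes called and 14.5% called lower, and 4 were called within the first set (15.6% of genes called) and 4 within the second (22%). With both blocked, all 6 were again lower, against 27.4% called and 14.3% called lower, with 0 within the first set (5.37%) and 6 within the second (29.6%). At an unadjusted p below 0.05 in edgeR, 3 of 6 passed within the first set in the comparisons of aPD1 + aGMCSF and of aPD1 + aGMCSF + aIL2RB with aPD1. For aPD1 + aGMCSF against aPD1, a test of the difference between sets called 0 of 6 (edgeR adjusted p = 0.397 to 0.938). Members wholly below the aPD1 tumors numbered 3 in aPD1 + aGMCSF (2.2% of all genes), 3 in aPD1 + aIL2RB (2.99%) and 0 in aPD1 + aGMCSF + aIL2RB (0.827%). The median log2 difference of the 6 was -1.13, -1.42 and -1.60 in these comparisons, with medians over all genes of 0.01, 0.00 and 0.01. The 3 comparisons share the 6 aPD1 tumors, so they are not independent of each other or of aPD1 against isotype.

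Set against isotype tumors, few members were called in the same blocking arms over both sets together. None of the 6 was called in aPD1 + aGMCSF, where edgeR called 0% of all genes (938 at an unadjusted p below 0.05, and 6 by DESeq2). Cxcr6 was the member called lower in aPD1 + aIL2RB (3.2% of genes called, 1.51% as lower), without overlap as for 0.532% of all genes on the lower side, and in aPD1 + aGMCSF + aIL2RB (10.2% called). Between the blocking arms, Cxcr6 was lower in aPD1 + aIL2RB than in aPD1 + aGMCSF (1.52% called), no member was called between aPD1 + aGMCSF + aIL2RB and aPD1 + aGMCSF (2.13% called), and none between aPD1 + aGMCSF + aIL2RB and aPD1 + aIL2RB (0.00591% called). The sets gave other counts for the combined arm. Against isotype, 0 were called within the first set (1.94% of genes) and 4 within the second (11.4%), namely Cxcl9 (-2.52, edgeR adjusted p = 0.00098), Cxcl16 (-0.87, adjusted p = 0.00109), Cxcr3 (-2.02, adjusted p = 0.0277) and Cxcr6 (-3.33). Against aPD1 + aGMCSF it was 0 (0.264%) and the same 4 genes (7.68%), with Cxcl9 at -2.25 and Cxcr6 at -2.68 in the second set. Against aPD1 + aIL2RB it was 0 (0%) and 2, Cxcl9 and Cxcl16 (2.04%). At an unadjusted p below 0.05 the first set had 1, 0 and 2 of 6 in these comparisons. Against isotype, a test of the difference between sets called 0 of 6 (edgeR adjusted p = 0.132 to 0.996), with 4 of 6 at an unadjusted p below 0.05.

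**Figure D2:**
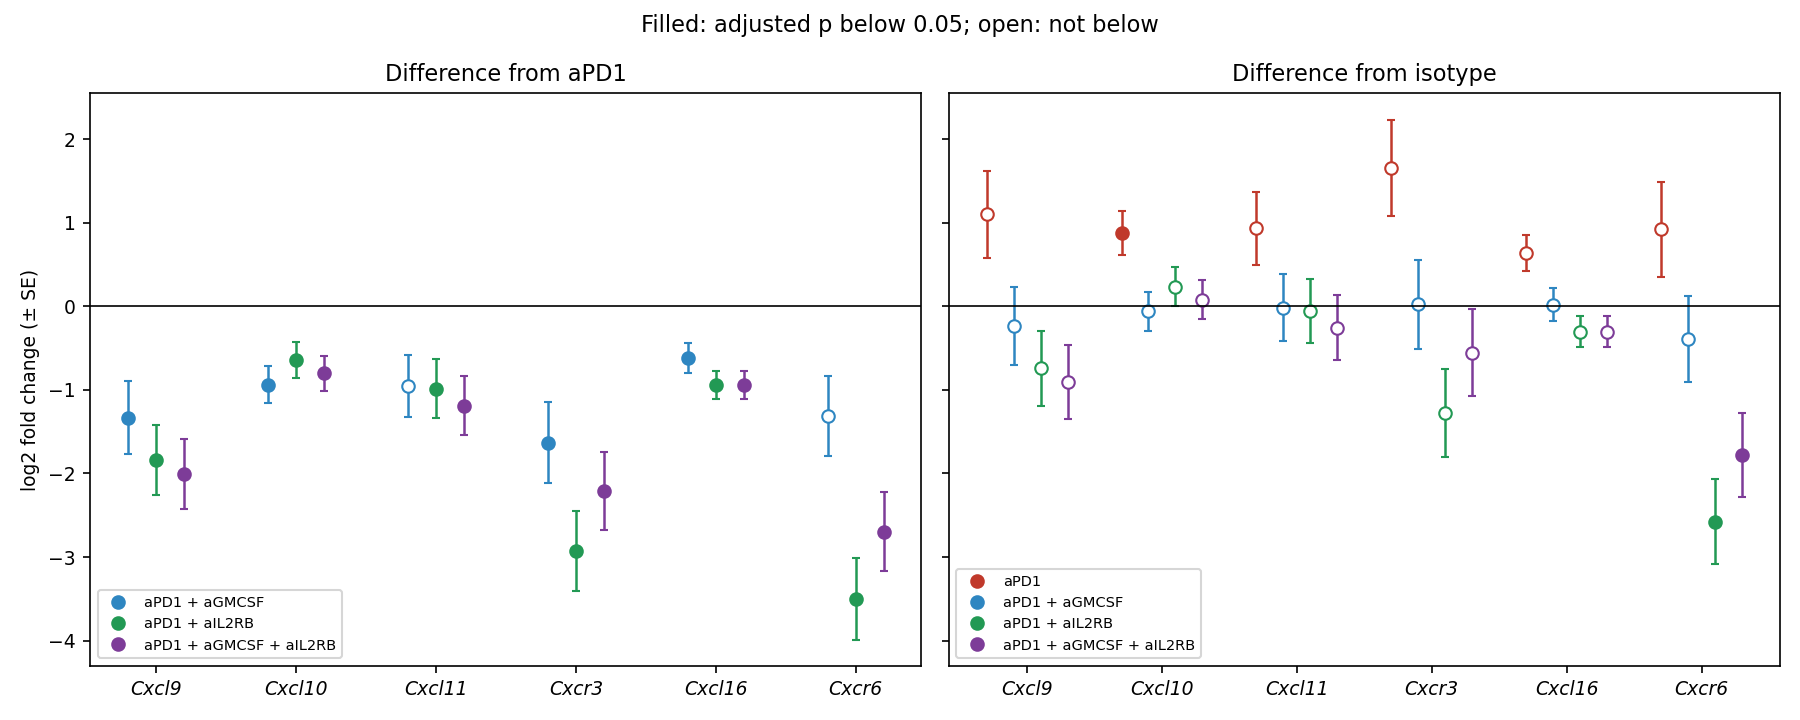
Log2 fold change (± SE, edgeR, all 42 tumors in 1 model) of each gene against aPD1 (left) and against isotype (right), with filled points where the adjusted p is below 0.05. Against aPD1 all points are below 0 and 16 of 18 are filled, while against isotype the filled points are Cxcl10 in aPD1 and Cxcr6 in the 2 groups given anti-IL2RB.

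Cxcl9, the interferon-gamma-induced ligand of CXCR3, was the most abundant of the 6 in the isotype, aPD1 and aPD1 + aGMCSF groups by mean CPM, and Cxcl10 was in both groups given anti-IL2RB (148 and 133 CPM, beside 131 and 117 CPM of Cxcl9). In aPD1 + aGMCSF + aIL2RB that order held in the second set but not in the first, where Cxcl9 counts averaged 1.18 per Cxcl10 count, beside 0.305 in the second. The isotype tumors stood at 186, 295, 189, 186 and 241 CPM, and the aPD1 tumors at 346 to 594 CPM with a median of 462. Each aPD1 tumor was above each isotype tumor, yet the difference (log2 1.10, SE 0.52, 2.14-fold, edgeR adjusted p = 0.187, range over alternatives 0.00247 to 0.547) did not pass the threshold in the model of all 42 tumors, and passed in a fit of these groups alone (adjusted p = 0.00247). Within the first set the difference was 0.93 and within the second set 1.24.

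After GM-CSF blockade Cxcl9 ran from 107 to 279 CPM with a median of 187, wholly below the aPD1 tumors (log2 -1.33, SE 0.44, edgeR adjusted p = 0.0362). That call was lost without any 1 of aPD1 replicates 1, 4, 5 and 6 or aPD1 + aGMCSF replicates 3, 5, 7 and 8 (adjusted p = 0.0503 to 0.0817), and within the first set (-1.20, adjusted p = 0.23). The second set gave -1.51 (adjusted p = 0.0284).

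IL2RB blockade brought Cxcl9 to between 42.2 and 332 CPM with a median of 103, again with no overlap with aPD1 tumors (log2 -1.84, SE 0.42, edgeR adjusted p = 0.000727, with -2.03 and -1.66 in the first and the second set). With both antibodies the spread was far wider, from 9.96 CPM in replicate 8 to 401 CPM in replicate 1, with a median of 78.4. One of these 11 tumors, replicate 1, lay inside the range of aPD1 (log2 -2.01, SE 0.42, edgeR adjusted p = 0.000313). The coefficient of variation of Cxcl9 was 0.193 in aPD1 and 1.00 in aPD1 + aGMCSF + aIL2RB. Along the order of group means, from aPD1 to isotype, aPD1 + aGMCSF, aPD1 + aIL2RB and aPD1 + aGMCSF + aIL2RB, no neighbours passed the test.

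Cxcl10, the ligand induced by type I interferons and NF-kB as well as interferon-gamma, spread less than Cxcl9. Isotype tumors had 128, 172, 101, 124 and 101 CPM and aPD1 tumors 163 to 317 CPM with a median of 239. Of the 6 aPD1 tumors, 2 fell inside the isotype range, and the difference was called (log2 0.88, SE 0.26, 1.84-fold, edgeR adjusted p = 0.0279, range over alternatives 0.0063 to 0.631). The call was lost without any 1 of aPD1 replicates 1, 4, 5 and 6 or isotype replicates 1, 3, 4 and 5 (adjusted p = 0.0510 to 0.0737), and within the first set (0.52), but not within the second set (1.19, adjusted p = 0.0063).

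The 3 blocking arms had almost the same Cxcl10 median: 122 CPM (88.8 to 153) in aPD1 + aGMCSF, 122 CPM (79.9 to 313) in aPD1 + aIL2RB and 114 CPM (88.5 to 272) in aPD1 + aGMCSF + aIL2RB. Beside aPD1 the log2 differences were -0.94 (SE 0.22, edgeR adjusted p = 0.00342), -0.64 (SE 0.21, adjusted p = 0.0194) and -0.80 (SE 0.21, adjusted p = 0.0036). Within the first set none of the 3 was called (adjusted p = 0.202, 0.0675 and 0.283). The aPD1 + aGMCSF tumors did not overlap with aPD1, while 4 aPD1 + aIL2RB tumors and 2 aPD1 + aGMCSF + aIL2RB tumors lay inside the aPD1 range. For aPD1 + aIL2RB the call was lost without aPD1 replicate 1 (adjusted p = 0.0767) and was missed within the second set too (-0.51, adjusted p = 0.138). Against isotype (median 124 CPM) Cxcl10 was not called in either anti-IL2RB arm: the log2 differences were 0.24 and 0.08, with 0.065 to 0.38 and -0.083 to 0.22 when 1 tumor was left out and -0.26 and -0.028 within the first set beside 0.68 and 0.069 within the second.

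Cxcl11, the ligand with the highest affinity for CXCR3 where it is made, was close to the limit of the counts. Isotype tumors had 3.35, 6.94, 2.07, 2.95 and 2.34 CPM. The aPD1 tumors ran from 4.14 to 10.8 CPM with a median of 6.83, so 3 of 6 lay inside the isotype range (log2 0.93, SE 0.44, edgeR adjusted p = 0.179). Within the second set the difference was 1.54 and was called (adjusted p = 0.0241, range over alternatives 0.0241 to 0.902), while the first set gave 0.30.

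Medians of Cxcl11 were 2.90 CPM (2.39 to 4.84) in aPD1 + aGMCSF, 2.65 CPM (0.745 to 8.44) in aPD1 + aIL2RB and 2.31 CPM (1.33 to 7.81) in aPD1 + aGMCSF + aIL2RB. The log2 differences from aPD1 were -0.95 (edgeR adjusted p = 0.0809), -0.99 (adjusted p = 0.0316) and -1.19 (adjusted p = 0.00973). Overlap with aPD1 tumors remained in each arm (4, 3 and 3 tumors). The call in aPD1 + aIL2RB was lost without any 1 of aPD1 replicates 1, 4 and 6 or aPD1 + aIL2RB replicates 2 and 7 (adjusted p = 0.0506 to 0.111), and within the first set (-0.99, adjusted p = 0.180) and the second set (-0.99, adjusted p = 0.0653).

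The ligands of CXCR3 did not keep one proportion to each other. The count of Cxcl9 per count of Cxcl10 in the same tumor does not depend on library size or scaling. It was 1.45, 1.71, 1.87, 1.50 and 2.39 in isotype tumors and 1.59 to 2.62 (median 2.07) in aPD1 tumors. In aPD1 + aGMCSF it was 1.13 to 2.21 (median 1.58), in aPD1 + aIL2RB 0.437 to 1.22 (median 0.903) and in aPD1 + aGMCSF + aIL2RB 0.0874 to 1.74 (median 0.651).

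Every aPD1 + aIL2RB tumor was thus below every isotype and aPD1 tumor in Cxcl9 per Cxcl10, and 2 of the 11 lay above the lowest aPD1 + aGMCSF tumor, which stood at 1.13. The mean log2 ratio was lower by 1.32 than in aPD1 (exact permutation test, two-sided, p adjusted over 80 ratio tests = 0.00162, with -1.40 and -1.23 in the first and the second set). It differed by -1.08 from isotype (adjusted p = 0.00277) and by -0.87 from aPD1 + aGMCSF (adjusted p = 0.00162) in the same exact test. The calls against aPD1, isotype and aPD1 + aGMCSF held with each tumor left out in turn.

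The ratio in aPD1 + aGMCSF differed from aPD1 by -0.45 (exact permutation test, adjusted p = 0.0396), a call lost in 11 of 15 fits with 1 tumor left out (aPD1 replicates 1, 2, 3, 4 and 6 and aPD1 + aGMCSF replicates 2, 3, 5, 7, 8 and 9, adjusted p = 0.0506 to 0.0768) and by the exact Wilcoxon test (0.0563). In aPD1 + aGMCSF + aIL2RB it differed by -1.85 from aPD1 (exact, adjusted p = 0.0241), by -1.40 from aPD1 + aGMCSF (adjusted p = 0.0241) and by -1.62 from isotype (adjusted p = 0.0588). These pooled values lie between those of the sets, which were -0.96, -0.58 and -0.49 in the first and -2.94, -2.38 and -2.89 in the second set. With tumors exchanged only within sets all 3 were called (permutation, adjusted p = 0.004, 0.0047 and 0.0205), the last also by the exact Wilcoxon test (0.0275) and without any 1 of its replicates 1, 2, 4 and 5 (0.0355 to 0.0477). Between aPD1 and isotype the difference was 0.23 (exact, adjusted p = 0.276). By contrast Cxcl11 per Cxcl10 count, between 0.00799 and 0.0405, gave 0 calls in 10 comparisons (exact or permutation test, adjusted p = 0.0817 to 0.971).

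**Figure D3:**
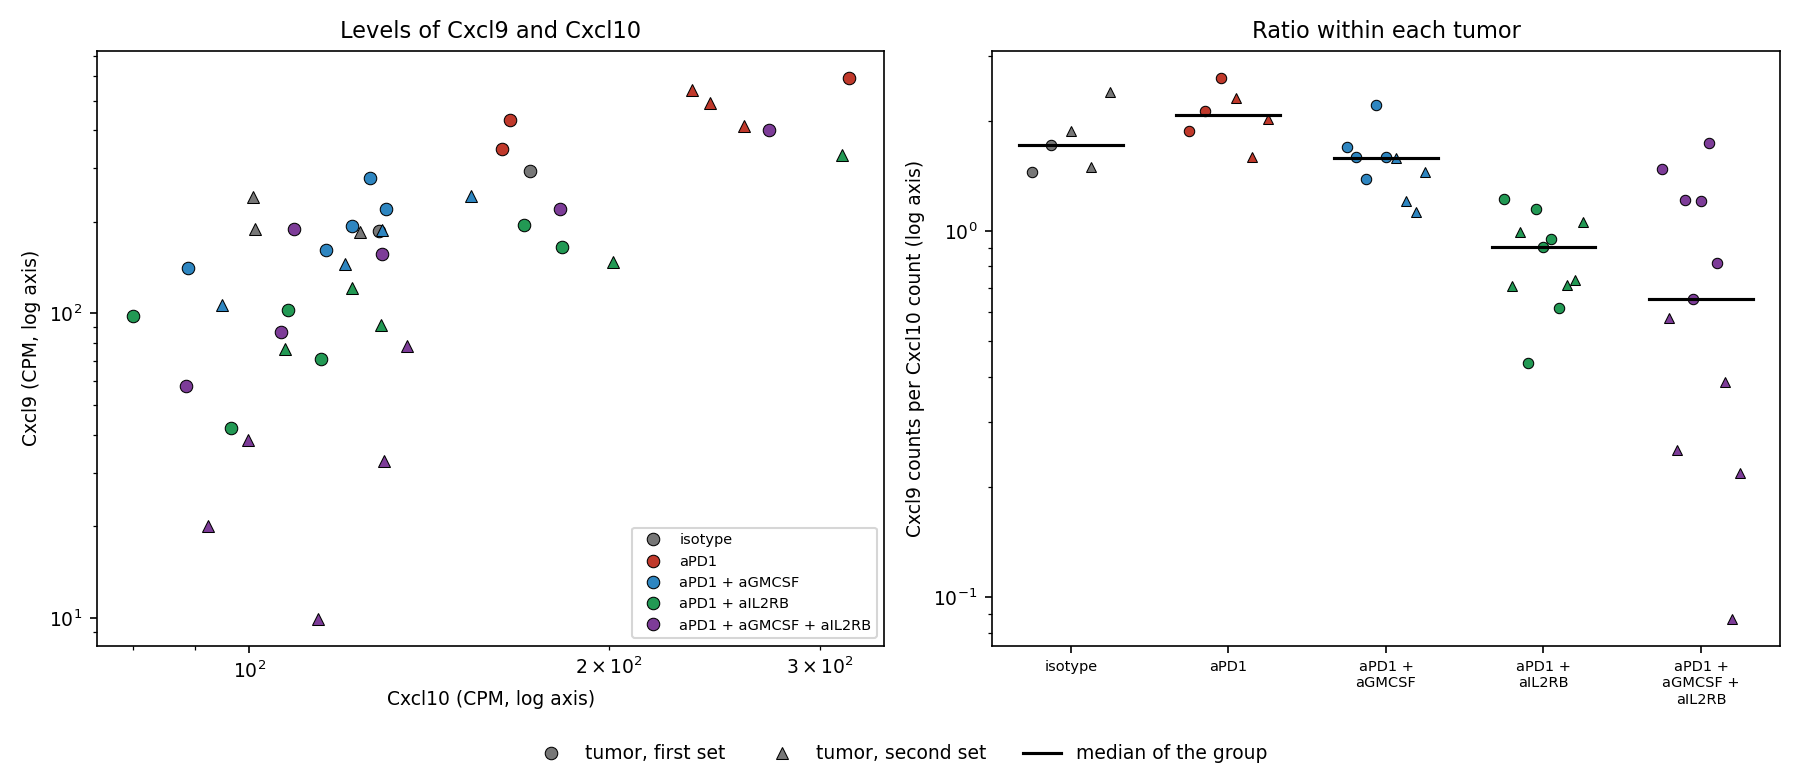
Left, Cxcl9 against Cxcl10 in each tumor (CPM, log axes), coloured by group with circles for the first set and triangles for the second set. Right, Cxcl9 counts per Cxcl10 count in each tumor (log axis) with the group median as a bar: each aPD1 + aIL2RB tumor is at or below 1.22, each isotype and aPD1 tumor at or above 1.45, and the 5 second-set tumors given both blocking antibodies are at or below 0.579.

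Cxcr3 (ENSMUSG00000050232, chrX:101731535-101734269, minus strand), the receptor for these ligands, was the scarcest of the 6. Isotype tumors had 1.32, 0.913, 0.454, 0.506 and 1.07 CPM. The aPD1 tumors ran from 0.754 to 4.73 CPM with a median of 2.87, and 2 of 6 lay inside the isotype range. This was the largest fitted fold of the 6 in aPD1 against isotype (log2 1.66, SE 0.58, 3.15-fold), at an edgeR adjusted p of 0.0641. It was called with set added to the model (0.0240), by DESeq2 (0.0366), in a fit of these groups alone (0.0418), within the second set (0.00884) and without aPD1 replicate 2 (0.0399) or 3 (0.0332), over a range of 0.00884 to 0.704.

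Levels of Cxcr3 in the blocking arms were 0.551 to 1.35 CPM (median 0.752) in aPD1 + aGMCSF, 0.122 to 1.19 CPM (median 0.270) in aPD1 + aIL2RB and 0 to 1.68 CPM (median 0.472) in aPD1 + aGMCSF + aIL2RB. Replicate 9 of the last group had 0 counts. Against aPD1 the log2 differences were -1.63 (SE 0.48, edgeR adjusted p = 0.0187), -2.93 (SE 0.48, adjusted p = 9.38e-06) and -2.21 (SE 0.47, adjusted p = 0.000368). For aPD1 + aIL2RB the first set gave -1.97 and the second set -4.13, both called. The aPD1 + aGMCSF call was lost without aPD1 replicate 4 (adjusted p = 0.0859) and within the first set (-0.88). A lower level in aPD1 + aIL2RB than in aPD1 + aGMCSF (log2 -1.30, adjusted p = 0.155) was called without aPD1 + aIL2RB replicate 3 (0.0472) and in a fit of these groups alone (0.0381).

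Cxcl16 (ENSMUSG00000018920, chr11:70453983-70459984, minus strand), the membrane-bound ligand of CXCR6, overlaps Zmynd15 on the plus strand. Its deposited count was not whole in 39 of 42 tumors, but the sum with Zmynd15 was whole in all 42 (tolerance 0.001), and Zmynd15 took 14.7% to 26.6% of that sum, with a median of 19%. In the summed count, a test added after the data were seen, the same comparisons were called as for Cxcl16 alone. The level of Cxcl16 rests on that split.

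Cxcl16 stood at 96.3, 131, 92.5, 108 and 99.4 CPM in isotype tumors and at 128 to 202 CPM (median 166) in aPD1 tumors, of which 2 lay inside the isotype range. The difference just missed the threshold (log2 0.64, SE 0.21, 1.55-fold, edgeR adjusted p = 0.0512). It was called with set added to the model (0.0346), by DESeq2 (0.0441), with the size factors of DESeq2 (0.0494), with genes of at least 10 counts in every tumor (0.0363), in a fit of these groups alone (0.0115), without aPD1 replicate 2 (0.0325) or 3 (0.0340) or isotype replicate 2 (0.0489), and within the second set (0.82, adjusted p = 0.00357), but not within the first set (0.43, adjusted p = 0.463).

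In aPD1 + aGMCSF Cxcl16 ran from 81.0 to 124 CPM (median 109), below every aPD1 tumor (log2 -0.62, SE 0.18, edgeR adjusted p = 0.018). That call was lost without any 1 of aPD1 replicates 1, 4 and 6 (adjusted p = 0.0503 to 0.0592) and within the first set (-0.46, adjusted p = 0.253). In aPD1 + aIL2RB it ran from 65.8 to 114 CPM (median 82.5), also with no overlap (log2 -0.94, SE 0.17, edgeR adjusted p = 5.25e-05), and this call held in each set. In aPD1 + aGMCSF + aIL2RB the range was 43.1 to 161 CPM (median 79.7), with 1 of 11 tumors inside the aPD1 range (log2 -0.94, SE 0.17, edgeR adjusted p = 6.45e-05). Group means of Cxcl16 lay between 85.4 and 164 CPM.

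Cxcr6 (ENSMUSG00000048521, chr9:123806475-123811760, plus strand), the receptor for CXCL16, lies inside Fyco1 on the other strand. Its highest and lowest group means were the furthest apart of the 6 in fold. Isotype tumors had 6.66, 11.5, 5.39, 5.40 and 7.24 CPM. The aPD1 tumors ran from 8.94 to 19.3 CPM with a median of 13.5, and 3 of 6 lay inside the isotype range (log2 0.92, SE 0.57, edgeR adjusted p = 0.324). The difference was called within the second set (1.31, adjusted p = 0.031) and in a fit of these groups alone (0.0364), over a range of 0.031 to 0.857.

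With IL2RB blocked, Cxcr6 fell to between 0.302 and 4.47 CPM, with a median of 0.771. Every one of these 11 tumors was below every isotype and every aPD1 tumor (log2 -2.58, SE 0.51, 5.97-fold lower, edgeR adjusted p = 0.00242 against isotype, and log2 -3.50, SE 0.49, 11.3-fold lower, adjusted p = 9.50e-07 against aPD1). Both calls held within each set and with each tumor left out, at -2.91 in the first and -4.49 in the second set against aPD1 and at -2.44 and -3.18 against isotype. It was also lower than in aPD1 + aGMCSF (log2 -2.19, SE 0.46, edgeR adjusted p = 0.0055), where 1 tumor of aPD1 + aIL2RB lay inside the other group's range, and within the first set that adjusted p was 0.0506.

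The aPD1 + aGMCSF + aIL2RB tumors had 0.363 to 11.8 CPM of Cxcr6 with a median of 1.15, and replicate 1 alone held the high end. Against aPD1 the difference was -2.70 (SE 0.47, edgeR adjusted p = 3.50e-05) and against isotype -1.78 (SE 0.50, adjusted p = 0.0199). Without replicate 1 of the combined arm these were -3.61 and -2.69. The latter call was lost without isotype replicate 2 (adjusted p = 0.0836), within the first set (-1.41, adjusted p = 0.245) and in a fit of these groups alone (0.0657). Against aPD1 + aGMCSF (2.15 to 10.97 CPM, median 5.22) it was -1.39 (edgeR adjusted p = 0.0807), and it was called without aPD1 + aGMCSF + aIL2RB replicate 1 (-2.30, adjusted p = 0.000123). GM-CSF blockade gave -1.31 against aPD1 (edgeR adjusted p = 0.0626), called without its replicate 4 (0.0368), with set added to the model (0.00864), in a fit of these groups alone (-1.30, adjusted p = 0.00267) and within the second set (-1.97, adjusted p = 0.000819), but not within the first set (-0.87, adjusted p = 0.544).

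The ligand and the receptor of the CXCL16 axis therefore parted by group. Cxcl16 counts per Cxcr6 count were 14.4, 11.4, 17.1, 19.96 and 13.7 in isotype tumors and 9.89 to 15.7 (median 11.7) in aPD1 tumors. They were 11.3 to 37.2 (median 21.3) in aPD1 + aGMCSF, 24.4 to 237 (median 104) in aPD1 + aIL2RB and 13.6 to 189 (median 74.6) in aPD1 + aGMCSF + aIL2RB. The highest value, 237 in aPD1 + aIL2RB replicate 8, rests on 6 counts of Cxcr6. All aPD1 + aIL2RB tumors were above all isotype and aPD1 tumors. The mean log2 ratio was 2.87 above aPD1 and 2.58 above isotype (exact permutation tests, adjusted p = 0.00162 and 0.00277), and within the first and the second set 2.29 and 3.57 above aPD1. With both antibodies it was 2.39 above aPD1 (exact, adjusted p = 0.00277) and 2.10 above isotype (adjusted p = 0.00916). For aPD1 + aGMCSF against aPD1 it was 0.78 (exact, adjusted p = 0.0357), lost in 9 of 15 fits with 1 tumor left out (aPD1 replicates 1, 2, 3, 4 and 6 and aPD1 + aGMCSF replicates 2, 5, 8 and 9, adjusted p = 0.0505 to 0.0719) and by the exact Wilcoxon test (0.0563).

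Relative to Cxcr3, Cxcr6 was lower in aPD1 + aIL2RB than in isotype and in aPD1 + aGMCSF tumors, the 2 of 10 comparisons of this ratio that were called. Isotype tumors held on average 9.10 ± 3.16 Cxcr6 counts per Cxcr3 count (SD, n = 5). The average was 6.48 ± 3.44 with anti-PD-1 (SD, n = 6), 6.19 ± 2.26 with GM-CSF also blocked (SD, n = 9) and 3.43 ± 2.12 with IL2RB blocked (SD, n = 11). The log2 ratio in aPD1 + aIL2RB was lower by 1.50 than in isotype (exact permutation test, adjusted p = 0.00916) and by 0.95 than in aPD1 + aGMCSF (adjusted p = 0.0241). Against aPD1 it was -0.91 (exact, adjusted p = 0.0803), and called without aPD1 + aIL2RB replicate 9 (0.0201) or aPD1 replicate 5 (0.0410). With both antibodies the ratio averaged 5.87 ± 9.19 (SD, n = 11) with a median of 2.37, and its highest value, 33 in replicate 9, rests on a Cxcr3 count of 0. The log2 difference of that group was -1.35 from isotype (exact, adjusted p = 0.129) and -0.76 from aPD1 (adjusted p = 0.329), with -1.63 in the first and 0.19 in the second set for the latter.

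**Figure D4:**
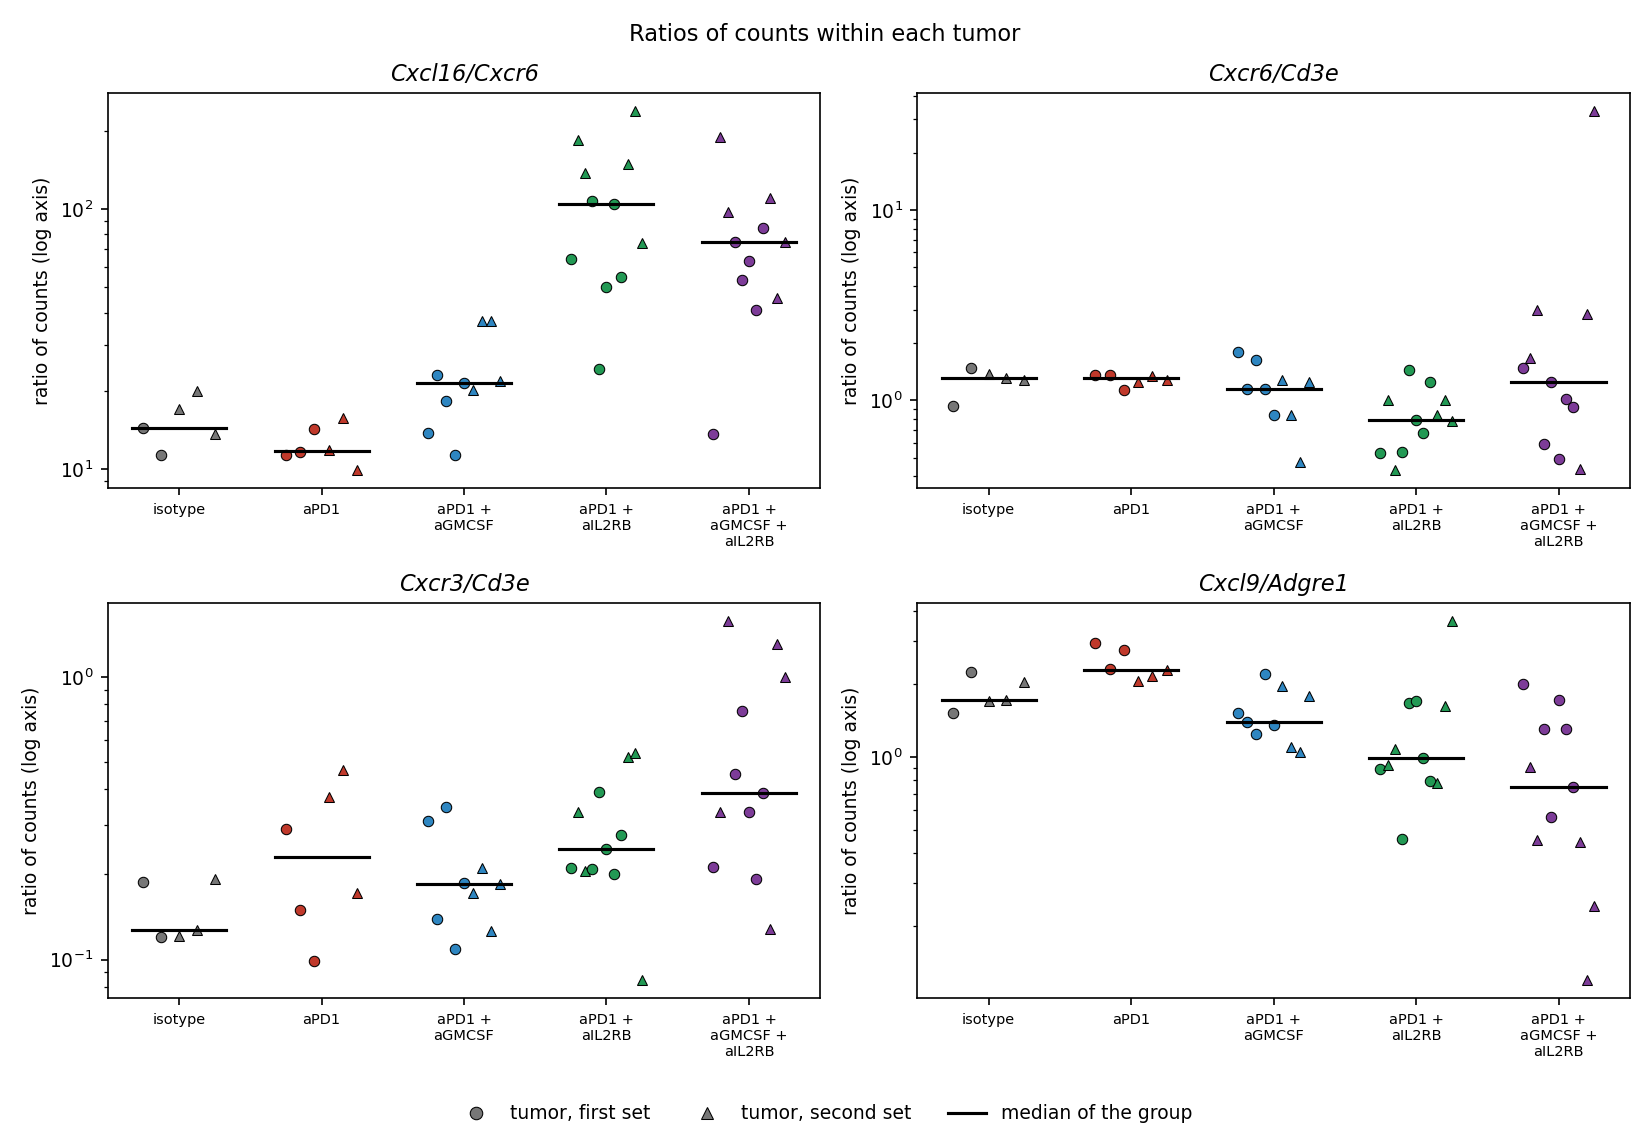
Ratios of counts within each tumor (log axes) for Cxcl16/Cxcr6, Cxcr6/Cd3e, Cxcr3/Cd3e and Cxcl9/Adgre1, with circles for the first set, triangles for the second set and a bar at the group median. Cxcl16/Cxcr6 has medians of 104 and 74.6 in the groups given anti-IL2RB beside 11.7 to 21.3 in the others, and Cxcr6/Cd3e of 33 in aPD1 + aGMCSF + aIL2RB replicate 9 rests on a Cd3e count of 0.

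Whether the blocking antibodies add up was tested as an interaction, the effect of both together less the sum of their separate effects under aPD1 (on the log2 scale, positive where the combined fall is smaller than the sum). It was positive for all 6 and called for Cxcr3 (2.35, SE 0.66, edgeR adjusted p = 0.0218) and Cxcr6 (2.11, SE 0.66, adjusted p = 0.0402), where 8.34% of all genes were called, 5.29% as higher. Cxcl10 was called without aPD1 replicate 2 (0.0490) or aPD1 + aIL2RB replicate 9 (0.0129), and Cxcl16 without aPD1 + aGMCSF + aIL2RB replicate 8 (0.0413) or 11 (0.0449). The other 4 had values of 0.62 to 1.17 with adjusted p of 0.0805 to 0.366. The Cxcr3 call was lost without aPD1 replicate 4 (0.0667) or aPD1 + aGMCSF + aIL2RB replicate 1 (0.0515). The Cxcr6 call was lost in 16 of 37 fits with 1 tumor left out, namely aPD1 replicates 1, 4 and 6, aPD1 + aGMCSF replicates 3, 5, 7, 8 and 9, aPD1 + aIL2RB replicates 2, 5, 7, 8, 10 and 11 and aPD1 + aGMCSF + aIL2RB replicates 1 and 5 (adjusted p = 0.0505 to 0.175). Without replicate 1 of the last group the Cxcr6 value was 1.2. Neither was called within the first or the second set alone, and the Cxcl9 value in the second set was -0.59. In aPD1 + aIL2RB, Cxcr3 and Cxcr6 had means of only 0.357 and 1.23 CPM. A further fall is hard to measure from such levels, and the part of this limit in their positive values was not tested.

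The sets differed in the receptors and in how the combined blockade looked. With treatment in the model, Cxcr3 was lower in the second set by 0.91 on the log2 scale (SE 0.30, edgeR adjusted p = 0.0204) and Cxcr6 by 1.07 (SE 0.28, adjusted p = 0.00461), where 25.1% of all genes were called between sets, 11.5% as lower in the second set. Cxcl16 missed the threshold (-0.27, adjusted p = 0.0501), and Cxcl10 stood at 0.03 (adjusted p = 0.917). The sets were drawn with earlier results of these data known, so the share of genes called between them is not independent support for them.

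In the first set the 6 tumors given both antibodies had 57.7 to 401 CPM of Cxcl9, and in the second set the 5 had 9.96 to 78.4 CPM. Cxcl16 was at 79.7 to 161 CPM in the first set and 43.1 to 73.5 CPM in the second set, with no overlap, and Cxcr6 at 1.15 to 11.8 and 0.363 to 0.924 CPM, again with none. Cxcl10 was at 88.5 to 272 and 92.4 to 135 CPM, so the sets overlapped. Summed macrophage markers of these tumors ran from 2268 to 3129 CPM in the first set and from 1562 to 1781 CPM in the second set, and T cell markers from 11.6 to 67.4 and from 2.16 to 5.35 CPM, and their part in the difference was not tested.

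The comparison with aPD1 changed with set for 4 of the 6: the log2 difference in aPD1 + aGMCSF + aIL2RB against aPD1 was -1.31 in the first and -3.77 in the second set for Cxcl9, -1.01 and -4.39 for Cxcr3, -0.47 and -1.68 for Cxcl16, and -1.88 and -4.64 for Cxcr6. Tests of these differences between sets gave edgeR adjusted p of 0.0203, 0.00652, 0.0031 and 0.0256, where 9.18% of all genes were called. In the first set alone none of the 6 was called in this comparison, and in the second set all 6 were, where 5.37% and 29.6% of all genes were called. The comparisons of aPD1 + aIL2RB with aPD1 gave 0 of 6 called between sets (edgeR adjusted p = 0.167 to 0.994), where 0.1% of all genes were called. At an unadjusted p below 0.05 it was 1 of 6, Cxcr3. Between aPD1 + aGMCSF + aIL2RB and aPD1 + aGMCSF the sets differed in 1 of 6 (Cxcl16, 0.821% of all genes called), and between aPD1 + aGMCSF + aIL2RB and aPD1 + aIL2RB in 2 of 6 (Cxcl9 and Cxcl16, 1.94% called).

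**Figure D5:**
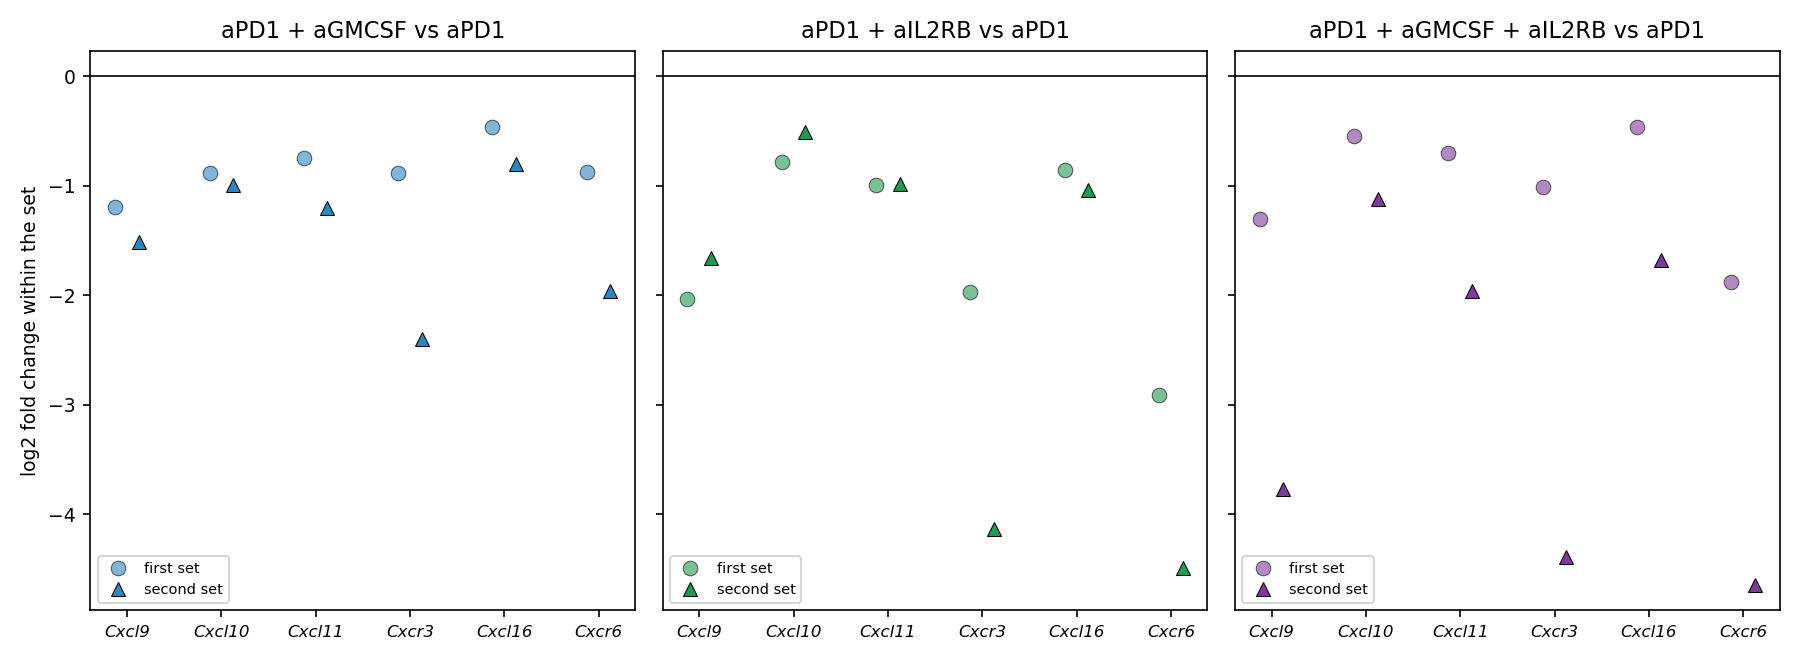
Log2 fold change against aPD1 within the first set (circles) and within the second set (triangles) for each gene and blocking arm, from separate edgeR fits of each set. The gaps in aPD1 + aGMCSF + aIL2RB are from -1.31 to -3.77 for Cxcl9, from -1.88 to -4.64 for Cxcr6 and from -1.01 to -4.39 for Cxcr3.

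Genes known to induce the ligands were followed as a list of 18 (interferon-gamma and type I interferon signaling, and TNF with NF-kB), of which 17 were tested. In aPD1 against isotype 8 were higher and 0 lower (median log2 0.26, beside 6.17% of all genes called higher), among them Stat2, which carries the type I interferon signal (0.79, edgeR adjusted p = 0.013), while Ifng itself was at 1.53 (adjusted p = 0.129). Against aPD1, 9 were lower in aPD1 + aGMCSF, 11 in aPD1 + aIL2RB and 11 in aPD1 + aGMCSF + aIL2RB, beside 8.75%, 14.5% and 14.3% of all genes, and 0 were higher in each. Ifng, followed in every comparison after its values were seen, differed from aPD1 by -1.51 (adjusted p = 0.0514), -2.28 (adjusted p = 0.000683) and -2.65 (adjusted p = 0.000175). Against isotype none of the 17 was called in any blocking arm, with Ifng at 0.02, -0.75 and -1.12.

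A list of 6 transcription factors that regulate CXCR3 and CXCR6 expression in lymphocytes (Tbx21, Eomes, Runx3, Prdm1, Zfp683 and Stat4) had 1 higher in aPD1 against isotype, Stat4 (1.37, edgeR adjusted p = 0.0204). All 6 were lower than aPD1 in aPD1 + aIL2RB (median log2 -1.45, beside 14.5% of all genes called lower) and in aPD1 + aGMCSF + aIL2RB (median -1.45, beside 14.3%), and 1 of 6, Stat4, in aPD1 + aGMCSF (median -0.57, beside 8.75%). Tbx21, which encodes the T-bet factor upstream of Cxcr3, was at 4.30 CPM in aPD1 and 0.457 CPM in aPD1 + aIL2RB (log2 -3.23, edgeR adjusted p = 6.93e-06). Zfp683, the gene of HOBIT, was at 0 counts in every aPD1 + aGMCSF + aIL2RB tumor. Relative to isotype, Tbx21 and Zfp683 were lower in both groups given anti-IL2RB.

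Among 14 genes of chemokine receptor signaling, 9 were lower and 3 higher in aPD1 + aIL2RB against aPD1 (27.4% of all genes called, 14.5% as lower), with the leukocyte genes Dock2 (-1.21), Rac2 (-1.48) and Pik3r5 (-1.47) lower and Plcb3 (0.37) higher. The counts were 10 and 2 in aPD1 + aGMCSF + aIL2RB (27.4%), 7 and 1 in aPD1 + aGMCSF (13.5%), and for aPD1 against isotype 6 were higher and 1 lower (8.71%). Of 5 genes that process or scavenge these chemokines, Dpp4, the protease that trims CXCR3 ligands, was lower in each blocking arm against aPD1, and Adam10 and Adam17, the sheddases of CXCL16, were not called. Of 11 other CXC ligands and receptors tested, 7, 4 and 6 were lower than aPD1 in aPD1 + aGMCSF, aPD1 + aIL2RB and aPD1 + aGMCSF + aIL2RB, with 0 higher, beside the same shares of all genes called lower (8.75%, 14.5% and 14.3%).

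Markers of the cells that carry the receptors had lower median sums in each blocking arm than in aPD1, with most calls in the arms with anti-IL2RB. The 8 T cell markers summed to a median of 46.8 CPM (30.5 to 54.0) in isotype, 82.8 (65.7 to 122) in aPD1, 37.4 (23.9 to 70.7) in aPD1 + aGMCSF, 8.99 (3.68 to 30.9) in aPD1 + aIL2RB and 11.6 (2.16 to 67.4) in aPD1 + aGMCSF + aIL2RB. In aPD1 against isotype 0 of the 8 T cell markers and 0 of 4 NK cell markers were called (edgeR, where 8.71% of all genes were), with median log2 differences of 0.98 and 0.99. Against aPD1, 1 of the 8 T cell markers was lower in aPD1 + aGMCSF (8.75% of all genes called lower), 7 in aPD1 + aIL2RB (14.5%) and 8 in aPD1 + aGMCSF + aIL2RB (14.3%). Of the NK cell markers 0, 4 and 4 were lower in these arms. The median log2 difference from aPD1 was -1.22, -2.76 and -2.26 for the T cell markers and -1.07, -4.62 and -4.35 for the NK cell markers, and Ncr1 was at 0 counts in every aPD1 + aIL2RB tumor. The part of lymphocyte content in the receptor levels was not tested beyond the ratios to Cd3e, a subunit of the T cell receptor complex.

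Per Cd3e count, isotype tumors held on average 1.27 ± 0.205 counts of Cxcr6 (SD, n = 5) and aPD1 tumors 1.29 ± 0.0874 (SD, n = 6). The average was 1.15 ± 0.405 with GM-CSF blocked (SD, n = 9) and 0.843 ± 0.312 with IL2RB blocked (SD, n = 11), where the log2 ratio was lower by 0.70 than in aPD1 (exact permutation test, adjusted p = 0.0357) and by 0.67 than in isotype (adjusted p = 0.0692). The former call was lost without any 1 of aPD1 replicates 1, 2, 4, 5 and 6 (up to 0.0641), and the latter was reached without aPD1 + aIL2RB replicate 3 (0.0340) or 6 (0.0496). In aPD1 + aGMCSF + aIL2RB the median was 1.24, with 33 in replicate 9, where Cd3e had 0 counts and 0.5 was added to each count. So Cxcr6 was 11.3-fold lower per library and 1.62-fold lower per Cd3e count in aPD1 + aIL2RB than in aPD1.

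The median of Cxcr3 per Cd3e count was 0.127 for isotype and 0.231 for aPD1 tumors. With blockade it was 0.185 for aPD1 + aGMCSF, 0.247 for aPD1 + aIL2RB and 0.388 for aPD1 + aGMCSF + aIL2RB. In the last group Cd3e had only 0 to 19 counts in the 5 tumors of the second set and 24 to 153 in the first, and replicate 9 had 0 counts of both genes, so that its ratio of 1 comes from the added 0.5 alone. Adding 0.5 draws such ratios toward 1, and the sizes that follow are not measured folds. The tests called the last group higher than isotype (log2 1.62, exact permutation test, adjusted p = 0.0357) and than aPD1 + aGMCSF (log2 1.29, adjusted p = 0.0357), with 1.21 and 0.82 in the first and 2.10 and 1.85 in the second set. Without replicate 9 they were 1.51 and 1.17 (exact, adjusted p = 0.0475 for both). The former call was lost without any 1 of the 5 isotype tumors or aPD1 + aGMCSF + aIL2RB replicate 3 (0.0502 to 0.0773), and the latter without that replicate or any 1 of aPD1 + aGMCSF replicates 2, 4, 5, 8 and 9 (0.0506 to 0.0613). In aPD1 + aIL2RB against aPD1 the difference was 0.21 (exact, adjusted p = 0.687).

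The 7 macrophage markers, for cells that make the ligands, summed to a median of 2229 CPM for isotype and 3279 CPM for aPD1 tumors, and to 2107, 2168 and 2268 CPM with GM-CSF, IL2RB and both blocked. Of the 7, 6 were higher in aPD1 than in isotype (6.17% of all genes called higher), and 6, 5 and 5 were lower than aPD1 in the blocking arms (8.75%, 14.5% and 14.3% called lower). Cxcl16 per count of Adgre1, the gene of the macrophage surface protein F4/80, lay between 0.514 and 1.24 in all 42 tumors, and 0 of 10 comparisons was called (exact or permutation test, adjusted p = 0.0692 to 0.904).

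Cxcl9 per Adgre1 count, by contrast, averaged 1.84 ± 0.292 for isotype tumors (SD, n = 5) and 2.42 ± 0.355 for aPD1 tumors (SD, n = 6). It averaged 1.51 ± 0.394 with GM-CSF blocked (SD, n = 9), 1.32 ± 0.866 with IL2RB blocked (SD, n = 11) and 0.892 ± 0.615 with both blocked (SD, n = 11). Against aPD1 the log2 ratio was lower by 0.71, 1.08 and 1.83 in the blocking arms (exact permutation tests, adjusted p = 0.0116, 0.0357 and 0.0205), the last with -1.19 in the first and -2.62 in the second set. The aPD1 + aIL2RB call was lost without aPD1 replicate 1 (0.0586) or 3 (0.0513). For aPD1 against isotype the value was 0.39 (exact, adjusted p = 0.0588), called without isotype replicate 2 (0.0238) and with tumors exchanged within sets (0.0244). Of 4 cDC1 markers, for dendritic cells that also make CXCL9, 3 were lower than aPD1 in aPD1 + aIL2RB and in aPD1 + aGMCSF + aIL2RB and 1 in aPD1 + aGMCSF. Of all genes, 14.5%, 14.3% and 8.75% were called lower in these comparisons.

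Among tumors given the same treatment most pairs of the 6 genes varied together over both sets, but only 5 of 15 pairs did within the second set. With group means subtracted from log2 CPM, 14 of 15 pairs were correlated over the 42 tumors (permutation within groups, p adjusted over 15 pairs), with Pearson r of 0.46 to 0.91 in those 14. The closest pair was Cxcl9 with Cxcl16 (r = 0.91, adjusted p = 2.5e-05; Spearman rho = 0.86, adjusted p = 2.5e-05, both at the smallest p that 100000 draws can give; r = 0.87 without the 2 tumors farthest from the median of Cxcl9), closer than Cxcl9 with its neighbour Cxcl10 (r = 0.65, adjusted p = 4.29e-05; rho = 0.71, adjusted p = 2.5e-05; r = 0.64 without the 2 farthest). Cxcl16 and Cxcr6 had r = 0.75 (adjusted p = 2.5e-05, rho = 0.74, adjusted p = 2.5e-05, r = 0.72 without the 2 farthest). Cxcl10 with Cxcr6, the lowest of the called pairs, went from r = 0.46 (adjusted p = 0.0115; rho = 0.39, adjusted p = 0.0189) to 0.25 without the 2 farthest, so it rests in large part on those tumors, and Cxcl10 with Cxcl16 went from 0.59 (adjusted p = 9.37e-05; rho = 0.55, adjusted p = 0.00039) to 0.44. The pair that missed the threshold was Cxcl10 with Cxcr3 (r = 0.32, adjusted p = 0.0626, rho = 0.32, adjusted p = 0.0527, r = 0.33 without the 2 farthest). Set was not removed in these pooled values, and no share over other pairs of genes stands beside the count. Ptprc alone ran from 86.8 to 368 CPM within aPD1 + aGMCSF + aIL2RB, and the part of leukocyte content in these correlations was not tested.

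Within the first set 15 of 15 pairs were called (r from 0.55 to 0.88), and within the second set 5 of 15 (r from -0.31 to 0.88). Cxcl9 with Cxcl16 held in both (0.88 and 0.82), whereas Cxcl9 with Cxcr6 had 0.80 in the first and 0.19 in the second set, and Cxcl16 with Cxcr6 0.83 and 0.44. Cxcr3, at few counts, had r of -0.31 to 0.19 with the other 5 in the second set.

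The genes most like each member across the 42 tumors, by Spearman rho of log2 CPM with treatment differences left in, differed between members. For Cxcl9 they included Serpina3g (rho = 0.98), Il2rg, Fcgr4 and H2-T23. For Cxcl10 they were Rtp4 (0.88), Ifi211, Oas1a, Irf9 and Irgm1, and for Cxcl11 Zbp1 (0.89), Gbp6, Irgm1, Trafd1 and Tgtp2, most of them known as interferon-stimulated genes. Cxcl16 was most like Ctss (0.97), H2-T23, Laptm5, Psap and Dnase1l3. For Cxcr3 the genes were Prkch (0.88), Stat4, Cd8a, Cd3d and Cd6, and for Cxcr6 they included Lck (0.96), Cd2, Cd8a and Trbc2, nearly all of them T cell genes. The median rho over all genes was between -0.05 and -0.02 for each member, and these values are a description with no test.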

How the data were processed

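Poly(A) libraries (KAPA mRNA HyperPrep, 100 bp paired ends) of 42 MC38 tumors were sequenced. The authors aligned the reads with Bowtie (1.2.3) to transcriptomes of the Collaborative Cross founders (GENCODE, GRCm38) and deposited expected counts per gene, in which reads shared between transcripts are divided. Of these values 15.2% were not whole, and they were rounded here. Strand use in counting is not given in the sources used here. Reads of 5 ribosomal RNA genes made up 1.72% to 17.9% of counts.

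The main test was the quasi-likelihood test of edgeR (4.0.16, R 4.3.3) on all 42 tumors in 1 model with 37 residual degrees of freedom, TMM scaling, filterByExpr (minimum count 10, minimum total 15; 16932 genes) and Benjamini-Hochberg adjustment over all genes in each comparison, at 0.05. The study's own tool, DESeq2 (1.42.0 here), was an alternative. Within-tumor ratios (0.5 added to each count) were compared by two-sided permutation tests, exact where a group had fewer than 10 tumors and otherwise with 100000 draws, adjusted over 8 ratios in 10 pairs of groups (Python 3.11.15, scipy 1.17.1). With 5 against 6 tumors the smallest exact p is 0.00433. For correlations, 2 was the prior count of log2 CPM. The scripts were tested on simulated data.

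Replicates are labelled biological. The alternatives were the set as a term, a block on replicate number, other scalings, filters and tools, each set alone, the exact Wilcoxon test for ratios, the compared groups alone and each tumor left out, plus Cxcl16 and Zmynd15 summed, which was chosen after seeing the data. The 6 genes, the pathway and marker lists and the sets were chosen with earlier results of these data known. Named genes were the 6 members, up to 4 list genes per comparison with the smallest adjusted p, the divisors Cd3e and Adgre1, and the 5 genes most like each member, of which some are not reported here. Promoter windows are from RefSeq (GRCm38.p6), where 4 of the 6 members matched. Cxcl11 and Cxcl16 were the other two.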

Additional observations from a re-analysis of the deposited data

Results flagged for a closer look

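The Cxcl11 level of isotype replicate 2 stood apart from its group, at 6.94 CPM beside 3.35 CPM in the next highest tumor, a gap of 0.736 of the range of the 5 tumors. In all, 18 groups of 4 to 10 tumors were looked at, of which chance marks about 5%.

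The comparison of aPD1 + aGMCSF + aIL2RB with aPD1 differed between the sets by a test of the difference itself (edgeR, second set less first set, log2) for 4 of the 6 genes. Cxcl9 differed by -2.44 (SE 0.69, adjusted p = 0.0203; highest 0.0743, without aPD1 replicate 2), Cxcr3 by -3.36 (SE 0.79, adjusted p = 0.00652), Cxcl16 by -1.20 (SE 0.25, adjusted p = 0.0031) and Cxcr6 by -2.75 (SE 0.81, adjusted p = 0.0256; highest 0.101, without aPD1 + aGMCSF + aIL2RB replicate 1). The Cxcr3 and Cxcl16 differences were called in 17 of 17 fits with 1 tumor left out, that of Cxcl9 in 14 and that of Cxcr6 in 12.

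Against aPD1 + aGMCSF the difference for Cxcl16 was -0.88 (edgeR adjusted p = 0.0492), called in 4 of 20 fits with 1 tumor left out and not called with the looser filter of at least 5 counts in total (0.0506). Against aPD1 + aIL2RB, Cxcl9 went from 0.72 in the first set to -2.10 in the second, a difference of -2.82 (SE 0.59, edgeR adjusted p = 0.0136), and Cxcl16 from 0.39 to -0.65, a difference of -1.03 (SE 0.22, adjusted p = 0.014). Without aPD1 + aIL2RB replicate 9 these had adjusted p of 0.0687 and 0.0585. These 7 are of 60 tests of the members between sets, and what the sets are is not given in the sources used here.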

How the results depend on the processing

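Blocking on replicate number left 0 of 80 ratio tests called (21 without it). Of these, 56 had 5 or 6 pairs, whose smallest p (0.0625 and 0.0312) cannot pass after adjustment, and sizes moved unequally: Cxcl9 per Cxcl10 stayed at -1.32 in aPD1 + aIL2RB against aPD1 but went from -1.85 to -0.88 in aPD1 + aGMCSF + aIL2RB against aPD1. In edgeR the block ended the calls of Cxcl11 in aPD1 + aIL2RB against aPD1 (0.107) and of Cxcl9, Cxcr3 and Cxcl16 in aPD1 + aGMCSF against aPD1 (0.10, 0.0750 and 0.0723), and it called 3 members in aPD1 against isotype, 1 in aPD1 + aGMCSF against aPD1, 1 in aPD1 + aGMCSF + aIL2RB against aPD1 + aGMCSF and 0 interactions, and it turned Cxcl11 to 0.16 and 0.17 (aPD1 + aGMCSF and aPD1 + aIL2RB against isotype) and 0.015 (aPD1 + aIL2RB against aPD1 + aGMCSF). The numbers do not pair the tumors: 16 of 67 same-number pairs had a correlation of residuals over 0.1 (-0.168 to 0.193), and 4 of 42 tumors correlated best with their own number.

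For aPD1 against isotype (1 member called) the count was 3 with set in the model, 3 by DESeq2, 2 with the size factors of DESeq2, 2 of the 4 genes with at least 10 counts in every tumor, 5 with these groups alone, 0 within the first set and 5 within the second set. Within the first set the count was also 0 in aPD1 + aGMCSF against aPD1, aPD1 + aIL2RB against aPD1 + aGMCSF, aPD1 + aGMCSF + aIL2RB against isotype and against aPD1, and for the interaction. Within the second set it was 4 in aPD1 + aGMCSF + aIL2RB against isotype, 4 against aPD1 + aGMCSF, 2 against aPD1 + aIL2RB and 0 for the interaction, with 5 correlations. The stricter filter, which removes Cxcr3 and Cxcr6, left 0 in each comparison that rested on them: aPD1 + aIL2RB against isotype, aPD1 + aIL2RB against aPD1 + aGMCSF, aPD1 + aGMCSF + aIL2RB against isotype and the interaction. With the groups alone aPD1 + aIL2RB against aPD1 + aGMCSF gave 2 and aPD1 + aGMCSF + aIL2RB against isotype 0, and set in the model gave 1 in aPD1 + aGMCSF + aIL2RB against aPD1 + aGMCSF. Leaving out 1 tumor gave 0 to 3 (aPD1 against isotype), 1 to 5 (aPD1 + aGMCSF against aPD1), 1 to 2 (aPD1 + aIL2RB against aPD1 + aGMCSF), 0 to 2 (aPD1 + aGMCSF + aIL2RB against isotype), 0 to 1 (against aPD1 + aGMCSF) and 0 to 3 (interaction), with 4 to 6 in aPD1 + aIL2RB against aPD1.

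Directions turned only among differences that were not called. Cxcl16 in aPD1 + aGMCSF + aIL2RB against aPD1 + aIL2RB went from -0.00078 to 0.019 summed with Zmynd15, 0.0017 by DESeq2, 0.0058 with the stricter filter, 0.0064 by library size, 0.00032 with size factors and 0.39 in the first set. Against isotype, aPD1 + aGMCSF gave Cxcr3 -0.00088 by library size, -0.11 with set in the model and -0.12 and -0.031 within the sets, and Cxcl16 -0.0077, -0.020 and, in the first set, -0.033. The first set also turned Cxcl10 to -0.26 (aPD1 + aIL2RB) and -0.028 (aPD1 + aGMCSF + aIL2RB) against isotype, Cxcl11 to 0.050 in aPD1 + aGMCSF + aIL2RB against aPD1 + aGMCSF, and Cxcl9, Cxcl10 and Cxcl11 to 0.72, 0.24 and 0.29 against aPD1 + aIL2RB. The second set turned Cxcl10 and Cxcl11 to 0.19 and 0.35 (aPD1 + aGMCSF against isotype), Cxcl11 to 0.56 (aPD1 + aIL2RB against isotype) and 0.21 (aPD1 + aIL2RB against aPD1 + aGMCSF), Cxcl10 to -0.12 (aPD1 + aGMCSF + aIL2RB against aPD1 + aGMCSF), Cxcr3 and Cxcr6 to -0.26 and -0.15 (against aPD1 + aIL2RB) and the Cxcl9 interaction to -0.59.

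With 1 tumor left out, Cxcl10 ran from -0.022 to 0.19 in aPD1 + aGMCSF + aIL2RB against aPD1 + aGMCSF, -0.32 to 0.014 against aPD1 + aIL2RB and -0.083 to 0.22 against isotype, and -0.13 to 0.076 in aPD1 + aGMCSF against isotype. Cxcl11 ran from -0.46 to 0.033, -0.52 to 0.14 and -0.16 to 0.38 in the last 3 of these comparisons, -0.27 to 0.068 in aPD1 + aIL2RB against aPD1 + aGMCSF and -0.29 to 0.34 against isotype. Cxcl16 ran from -0.14 to 0.069, Cxcl9 from -0.57 to 0.075 and Cxcr6 from -0.11 to 1.21 in aPD1 + aGMCSF + aIL2RB against aPD1 + aIL2RB, and in aPD1 + aGMCSF against isotype Cxcl16 from -0.025 to 0.10 and Cxcr3 from -0.13 to 0.23. The cause of these changes was not tested.

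Over all genes, the 1475 called in aPD1 against isotype became 667 to 1984 with 1 tumor left out and 2 within the first set, and the 542 of aPD1 + aIL2RB and 1726 of aPD1 + aGMCSF + aIL2RB against isotype became 226 to 960 and 479 to 2001. Scaling by library size alone turned 1045 higher and 430 lower in aPD1 against isotype into 769 and 1174. In aPD1 + aGMCSF, aPD1 + aIL2RB and aPD1 + aGMCSF + aIL2RB against aPD1 it turned 807 and 1482, 2198 and 2449, and 2215 and 2419 into 1402 and 1120, 3125 and 1981, and 3279 and 1879. It moved the median of all genes by at most 0.08. Looser filters and leaving out ribosomal RNA changed none of 66 calls or directions of the members in the comparisons of groups and the interaction. Cxcr3, Cxcl11 and Cxcr6 had the fewest counts, which limits their single-tumor values.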
